A study of Homo sapiens with 6 samples.

Results

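The genes of the thioredoxins TXN and TXN2, the mitochondrial thioredoxin reductase TXNRD2, the peroxiredoxins PRDX1 to PRDX5, the thioredoxin-binding protein TXNIP and the superoxide dismutase SOD2 were examined as 1 set. The members are a list of symbols, drawn up with earlier results of these data known, and all 10 were found, each on 1 row, among the 61806 genes of the deposited table. RNA-seq covered 6 libraries of HCT116, a human colorectal carcinoma line. In 3 of them (si-NC, genotype wildtype in the labels) the cells received a control siRNA, and in the other 3 (si-STRIP2, genotype STRIP2 knockdown) an siRNA against STRIP2. STRIP2 is a member of the STRIPAK complexes, which join a phosphatase to kinases, and the title of the series names it together with LCN2 and with ferroptosis, a cell death driven by lipid peroxidation. The same growth medium is given for every library, with no siRNA dose and no time after its addition. Whether libraries of 1 group stem from separate cultures is not given either, so p-values measure the spread between these libraries, which may be technical.

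Thioredoxins are small proteins that reduce disulfides in other proteins, and thioredoxin reductases return them to the reduced state with electrons from NADPH. Peroxiredoxins are abundant peroxidases that remove hydrogen peroxide and organic peroxides and are for the most part recharged by thioredoxin. The system is repeated in several compartments: TXN, PRDX1 and PRDX2 act mainly in the cytosol, TXN2, TXNRD2, PRDX3 and SOD2 in the mitochondrial matrix, PRDX4 in the endoplasmic reticulum, and PRDX5 in mitochondria, peroxisomes and the cytosol. TXNIP, an alpha-arrestin, binds reduced thioredoxin and lowers its activity, and it also restrains glucose uptake.

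Total counts ranged from 17184963 to 21721218 per library, and counts on genes of the mitochondrial genome made up 4.88% to 8.88% of them. This share was 7.01% ± 2.01 (SD, n = 3) in the control group and 6.00% ± 0.287 with the knockdown, a difference within the spread of the libraries (p = 0.5 by a 2-sided exact permutation test, which cannot go below 0.1 here). The difference of the mean shares, si-STRIP2 minus si-NC, was -1.01 percentage points, and it was -0.077 without si-NC replicate 3 and -2.08 without si-NC replicate 2. STRIP2 itself had 3.19, 3.77 and 3.81 FPKM in si-NC and 2.71, 2.53 and 2.58 FPKM in si-STRIP2, which left 72.8% of the control level (edgeR adjusted p = 1.62e-05). Of 10 markers of colorectal epithelium, 6 were at or above 1 FPKM in every library (EPCAM, CDH1, KRT8, KRT18, KRT19 and CDX2), CDX1 had no count, and KRT20, VIL1 and CDH17 were below 1 FPKM. Of the 7 epithelial markers tested, 4 were lower with the knockdown, 2 were higher and KRT8 was not called. Of all 15687 tested genes, 27.0% were lower and 27.8% higher at the same threshold (edgeR adjusted p under 0.05). CDH1 went from 36.6 to 24.2 FPKM (log2 fold change -0.60, edgeR adjusted p = 1.57e-14), KRT18 by -0.18, EPCAM by -0.11 and KRT20 by -1.01 on the log2 scale, the last from below 1 FPKM. KRT19 and CDX2 were higher by 0.22 and 0.38 on that scale. The part of these markers in the results was not tested. The summed level of the epithelial list was 691 to 722 FPKM in si-NC and 668 to 691 FPKM in si-STRIP2. The summed level of 6 fibroblast markers was 1.92 to 2.61 FPKM. Most of this was COL1A1, at 1.89 to 2.55 FPKM and alone in reaching 1 FPKM in every library, while COL1A2 had no count. The summed level of 5 leukocyte markers was 0.11 to 0.43 FPKM and that of 3 endothelial markers 0.03 to 0.10 FPKM. In bulk libraries such as these, fewer cells with a transcript and less transcript per cell cannot be told apart.

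Most of the set differed between the groups, as did most genes of these libraries, and its members moved in both directions. With a threshold of 0.05 on the adjusted p of edgeR, 7 of the 9 members tested were called, where 54.8% of all 15687 tested genes were. PRDX1, TXN2, TXNRD2, SOD2 and PRDX2 were higher in si-STRIP2 cells (5 of 9, against 27.8% of all tested genes), and PRDX5 and PRDX3 were lower (2 of 9, against 27.0%). TXN and PRDX4 were not called, and TXNIP had too few counts to be tested. In FPKM, the 3 libraries of one group lay wholly above or below the other 3 for the 7 called members, where this held for 58.6% of all tested genes. The median log2 fold change of the 9 was 0.22, beside 0.014 for all tested genes. The log2 fold changes of the 9 reached from -0.26 to 0.58. In a test against a 1.2-fold change, added after the values were seen, PRDX1 and TXN2 passed. These 2 of 9 were close to the share of all tested genes that passed, 23.7%.

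**Figure D1:**
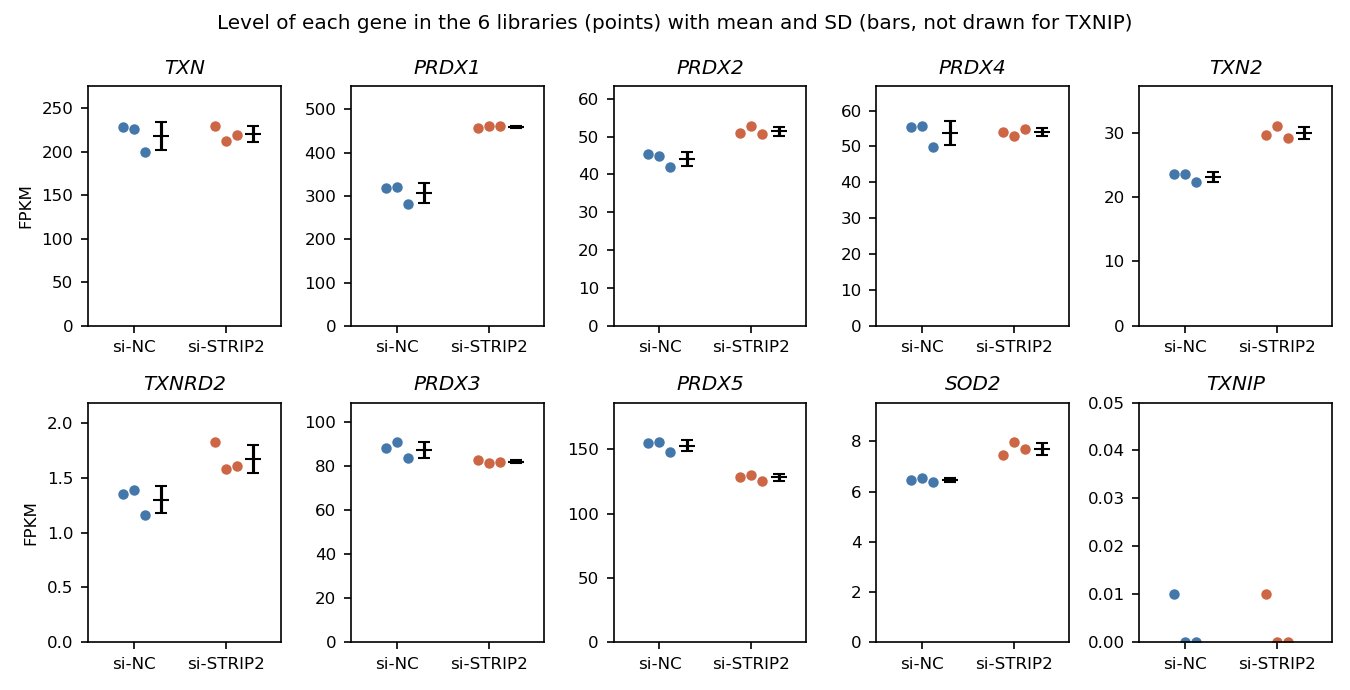
FPKM (vertical axis, from 0, a separate scale for each gene) of the 10 genes in the 3 si-NC libraries (blue) and the 3 si-STRIP2 libraries (orange), replicates 1 to 3 from left to right, with the mean and SD in black except for TXNIP. PRDX1 goes from 281 to 322 FPKM in si-NC to 456 to 462 FPKM in si-STRIP2, PRDX5 lies lower in si-STRIP2, and TXNIP does not exceed 0.01 FPKM.

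Promoters were available from RefSeq (GRCh38.p14) for 8 of the 10 members, all except TXN2 and PRDX1. The 250 bases before the start nearest to the deposited 5′ end are shown for TXNIP, which was all but absent, TXN, which did not change detectably, PRDX2, which rose, and PRDX5, which fell, so that the upstream sequence of each kind of outcome can be seen. Capitals mark matches on either strand to CCAAT (the CCAAT box), to GGGCGG (the GC box), to TATAAA (the TATA box) and to a pair of CACGNG elements 5 bases apart. The search also covered CACGTG (the E-box) and TGACNNNGC (the core of the antioxidant response element). Overlapping matches share their capitals.

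TXNIP (chr1:145996580-145996829, minus strand): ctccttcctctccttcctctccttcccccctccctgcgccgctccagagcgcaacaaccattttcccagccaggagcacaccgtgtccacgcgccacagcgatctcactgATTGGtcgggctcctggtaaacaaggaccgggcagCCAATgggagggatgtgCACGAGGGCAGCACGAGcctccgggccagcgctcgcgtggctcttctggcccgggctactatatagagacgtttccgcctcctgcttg
TXN (chr9:110256508-110256757, minus strand): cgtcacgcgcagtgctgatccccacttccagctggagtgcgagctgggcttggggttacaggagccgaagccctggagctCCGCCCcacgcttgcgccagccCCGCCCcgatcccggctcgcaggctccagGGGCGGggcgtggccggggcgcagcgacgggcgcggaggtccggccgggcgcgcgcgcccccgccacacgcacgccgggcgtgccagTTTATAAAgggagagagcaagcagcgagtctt
PRDX2 (chr19:12801801-12802050, minus strand): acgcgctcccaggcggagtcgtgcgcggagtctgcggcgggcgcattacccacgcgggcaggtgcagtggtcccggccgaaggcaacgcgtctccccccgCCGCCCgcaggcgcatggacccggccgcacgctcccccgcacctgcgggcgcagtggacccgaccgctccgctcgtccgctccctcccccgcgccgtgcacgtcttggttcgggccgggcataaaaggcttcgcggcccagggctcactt
PRDX5 (chr11:64317871-64318120, plus strand): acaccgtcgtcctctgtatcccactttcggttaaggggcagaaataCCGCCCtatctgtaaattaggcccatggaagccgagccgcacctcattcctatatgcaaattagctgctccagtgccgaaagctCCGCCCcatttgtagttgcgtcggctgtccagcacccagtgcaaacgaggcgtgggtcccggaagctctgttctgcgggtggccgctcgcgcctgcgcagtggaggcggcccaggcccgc

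The TXNIP sequence holds 2 CCAAT elements and 1 pair of CACGNG elements, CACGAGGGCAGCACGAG. This is the form of a carbohydrate response element, the kind of site through which the glucose-sensing factors MondoA and ChREBP act. CCAAT occurs in 32.0% of all 34943 RefSeq promoter windows of this length and the CACGNG pair in 0.0458%, or 16 windows. The pair was searched in this 1 form only, which the TXNIP site fits, and looser forms were not counted. Its rarity is therefore no test of the TXNIP site. The TXN sequence holds 3 GGGCGG elements and 2 overlapping TATAAA matches, 1 on each strand. GGGCGG was found 1 time in PRDX2 and 2 times in PRDX5, and in 42.5% of all windows, while TATAAA was found in 10.8%. TGACNNNGC was in none of the windows of the 8 members and in 10.9% of all windows, and CACGTG was in those of PRDX3 and PRDX4 and in 6.32% of all. These matches describe the letters of the windows and not the binding of a factor.

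Among the cytosolic members, both peroxiredoxins rose and TXN, which recharges them, did not pass the test. PRDX1 (ENSG00000117450, chromosome 1, 45510914 to 45542732, minus strand), the most abundant member, had 317.69, 321.74 and 281.33 FPKM in si-NC and 456.21, 461.88 and 460.88 FPKM in si-STRIP2. Every si-STRIP2 library lay far above every si-NC library, and the 3 si-STRIP2 values were nearly the same. The mean went from 307 ± 22.3 to 459.7 ± 3.03 FPKM (SD, n = 3). Its log2 fold change was 0.58 ± 0.046 (SE), or 1.49-fold (edgeR adjusted p = 8.64e-13). Although 1010 called genes rose by more, PRDX1 ranked 57 by mean FPKM among all tested genes, so that its change rested on 8132 to 14410 counts per library.

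PRDX2 (ENSG00000167815, chromosome 19, 12796820 to 12801800, minus strand), the second cytosolic peroxiredoxin, had 45.49, 44.87 and 41.97 FPKM in si-NC and 50.84, 52.81 and 50.70 FPKM in si-STRIP2. The groups did not overlap, but the step was smaller than that of PRDX1, at a log2 fold change of 0.22 ± 0.044 (SE, edgeR adjusted p = 8.28e-05). TXN (ENSG00000136810, chromosome 9, 110243810 to 110256507, minus strand), the cytosolic thioredoxin, had 227.91, 226.04 and 199.11 FPKM in si-NC and 229.51, 211.75 and 218.80 FPKM in si-STRIP2. The ranges of the groups overlapped. The log2 fold change of TXN was 0.011 with a 95% interval from -0.081 to 0.10 (edgeR adjusted p = 0.851), and its sign was negative under 4 of 16 alternatives. The ratio of PRDX1 to TXN, both in FPKM, was 1.41 ± 0.0149 (SD, n = 3) in the controls and 2.09 ± 0.0976 with the knockdown, and the groups did not overlap.

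PRDX4 (ENSG00000123131, chromosome X, 23664262 to 23686397, plus strand), the peroxiredoxin of the endoplasmic reticulum, which takes part in oxidative protein folding, had 55.49, 55.71 and 49.97 FPKM in si-NC and 54.00, 52.91 and 55.00 FPKM in si-STRIP2. The values of the groups interleaved. Its log2 fold change was 0.0018 with a 95% interval from -0.090 to 0.094 (edgeR adjusted p = 0.977), and the sign was negative under 7 of 16 alternatives.

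The members found in mitochondria did not all move in the same direction. TXN2 rose, as did TXNRD2 and SOD2, whose values are uncertain. PRDX5, found outside mitochondria as well, fell, and the lower call of PRDX3 was not stable. TXN2 (ENSG00000100348, chromosome 22, 36467046 to 36481640, minus strand), the mitochondrial thioredoxin, had 23.60, 23.53 and 22.29 FPKM in si-NC and 29.66, 31.03 and 29.21 FPKM in si-STRIP2. All 3 si-STRIP2 values were above all si-NC values, and the log2 fold change was 0.37 ± 0.054 (SE), or 1.29-fold (edgeR adjusted p = 4.81e-07). The ratio of TXN to TXN2 in FPKM went from 9.40 ± 0.404 (SD, n = 3) in the controls to 7.35 ± 0.473 with the knockdown.

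TXNRD2 (ENSG00000184470, chromosome 22, 19875517 to 19941820, minus strand), which recharges TXN2, was the least abundant of the tested members. It had 1.35, 1.39 and 1.16 FPKM in si-NC and 1.82, 1.58 and 1.61 FPKM in si-STRIP2, from 163 to 280 counts per library. The groups did not overlap, and the log2 fold change was 0.36 ± 0.097 (SE, edgeR adjusted p = 0.00206), the widest error of the set. Whether reads were counted by strand is not given in the sources used here, so the value of TXNRD2 is uncertain.

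SOD2 (ENSG00000112096, chromosome 6, 159669069 to 159762529, minus strand), which turns superoxide of the matrix into hydrogen peroxide, had 6.46, 6.53 and 6.37 FPKM in si-NC and 7.44, 7.95 and 7.69 FPKM in si-STRIP2. The groups were well apart, with a log2 fold change of 0.25 ± 0.042 (SE, edgeR adjusted p = 4.65e-06). WTAP on the opposite strand held 124% as many counts and shares 298 exonic bases with SOD2 in GENCODE 29, and it was lower in si-STRIP2 (log2 fold change -0.17, edgeR adjusted p = 0.000505). The value of SOD2 is uncertain for the same reason as that of TXNRD2.

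PRDX5 (ENSG00000126432, chromosome 11, 64318121 to 64321811, plus strand) fell where TXN2 rose. It had 155.30, 155.37 and 147.91 FPKM in si-NC and 128.86, 130.29 and 125.44 FPKM in si-STRIP2, with every si-STRIP2 value below every si-NC value. The log2 fold change was -0.26 ± 0.041 (SE, edgeR adjusted p = 2.55e-06), and 83.6% of the control level remained. PRDX3 (ENSG00000165672, chromosome 10, 119167720 to 119178812, minus strand), the main peroxidase of the matrix, had 88.04, 90.66 and 83.56 FPKM in si-NC and 82.77, 81.34 and 81.64 FPKM in si-STRIP2. The groups were separate by less than 1 FPKM. Its log2 fold change was -0.097 ± 0.040 (SE, edgeR adjusted p = 0.0378), and the call was lost under 10 of 16 alternatives, where the adjusted p rose to between 0.0635 and 1. Leaving out replicate 1 (edgeR adjusted p = 0.112) or 2 (0.128) of si-NC ended the call, as did leaving out replicate 1 (0.0839), 2 (0.118) or 3 (0.0839) of si-STRIP2.

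**Figure D2:**
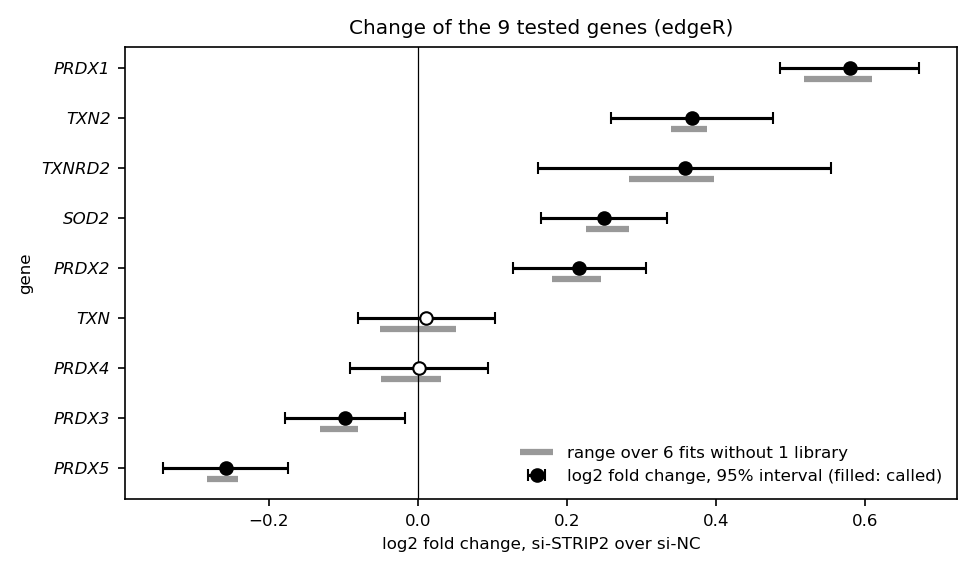
Log2 fold change of si-STRIP2 over si-NC (horizontal axis) for the 9 tested genes, with 95% intervals from edgeR (black, filled where called) and the range over the 6 fits that leave out 1 library (grey). PRDX1 at 0.58 and PRDX5 at -0.26 mark the ends, and the intervals of TXN and PRDX4 include 0.

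In the control group, replicate 3 had the lowest FPKM of all 9 tested members, and its mitochondrial share was the highest, at 8.88%. How many of all tested genes were lowest in this library was not counted, and a link to that share was not tested. Without si-NC replicate 3, the log2 fold change of PRDX1 was 0.52 (edgeR adjusted p = 6.21e-14) and that of PRDX2 0.18 (edgeR adjusted p = 0.000793), and TXN and PRDX4 moved to -0.051 and -0.049, without being called. With counts of mitochondrial-genome genes left out before scaling, PRDX1 stood at 0.57 and PRDX2 at 0.21.

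By level per exonic length in si-NC, the order was PRDX1 (307 FPKM), TXN (218 FPKM), PRDX5 (153 FPKM), PRDX3 (87.4 FPKM), PRDX4 (53.7 FPKM), PRDX2 (44.1 FPKM), TXN2 (23.1 FPKM), SOD2 (6.45 FPKM) and TXNRD2 (1.30 FPKM). Neighbours in this order did not overlap across the 3 si-NC libraries. The exonic size of the deposited table is long for several members, at 3.88 times the GENCODE 29 principal transcript for TXNRD2, 2.12 times for PRDX3 and 2.06 times for PRDX2. The length of SOD2 is 18144 bases as deposited and 14266 bases in the principal transcript, so its low place was not tested with a short length. SOD2 had 1986 to 2545 counts per si-NC library, where TXN2 had 632 to 846. With the principal transcript as the length, an alternative added after the values were seen, PRDX3 (186 FPKM) lay above PRDX5 (147 FPKM), PRDX2 reached 90.9 ± 3.88 and PRDX4 99.2 ± 6.00 FPKM (SD, n = 3), close enough for their libraries to overlap, and TXNRD2 was at 5.04 FPKM. The fold change of a single gene between the groups does not depend on this length. Sums over several genes, and the shares of such sums, do depend on it, in level and in the size of their shifts.

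The summed level of PRDX1 to PRDX5 on the deposited scale was 662.01, 668.35 and 604.74 FPKM in si-NC and 772.68, 779.23 and 773.66 FPKM in si-STRIP2. The makeup of the sum shifted toward PRDX1, which took 47.5% ± 0.894 (SD, n = 3) of it in the controls and 59.3% ± 0.265 with the knockdown. PRDX5 went from 23.7% ± 0.647 to 16.5% ± 0.281, PRDX3 from 13.6% ± 0.259 to 10.6% ± 0.137, and PRDX4 from 8.33% ± 0.0600 to 6.96% ± 0.161. PRDX2 took 6.84% ± 0.116 and 6.64% ± 0.122. PRDX4 thus lost share without a detectable change of its own level.

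**Figure D3:**
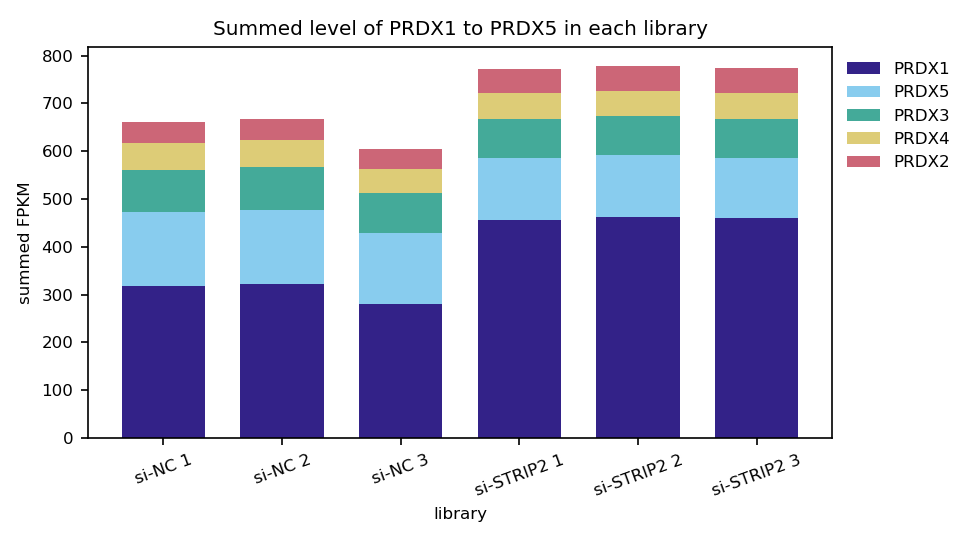
Summed FPKM of PRDX1 to PRDX5 (vertical axis, from 0) in each of the 6 libraries, with 1 colour per gene. The si-STRIP2 bars reach 773 to 779 FPKM and the si-NC bars 605 to 668 FPKM, and the PRDX1 segment is the one that grows most.

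TXNIP (ENSG00000265972, chromosome 1, 145992435 to 145996579, minus strand) was all but undetected. It had 1 count in si-NC replicate 1, 1 count in si-STRIP2 replicate 1 and 0 counts in the other 4 libraries, or 2 of 109701140 counts. A count of 0 allows up to 3 counts, which is 0.0476 to 0.0484 FPKM in the 4 libraries with 0 counts and covers counting error only. No fold change is given, since both groups are below this limit. Of the 9 other protein-coding genes of GENCODE 29 within 100 kb of TXNIP, 6 had at least 100 counts over the 6 libraries. Chosen after their values were seen, POLR3GL, 13587 bases away, had 13.5 to 17.45 FPKM, and RBM8A had 37.5 to 40.5 FPKM.

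ARRDC4, an alpha-arrestin and, like TXNIP, a known target of MondoA, was well expressed and had the largest change among the tested genes of the 6 lists. It had 37.00, 38.92 and 36.80 FPKM in si-NC and 18.64, 19.02 and 18.91 FPKM in si-STRIP2. The groups were far apart, with a log2 fold change of -0.998 ± 0.042 (SE), which left 50.1% of the control level (edgeR adjusted p = 7.79e-20). The 250 bases before the ARRDC4 start held no CACGNG pair of the form found in TXNIP, and they held CACGTG 1 time. MLX, the dimer partner of MondoA, rose from 8.23 ± 0.520 to 10.8 ± 0.258 FPKM (SD, n = 3; log2 fold change 0.39, edgeR adjusted p = 4.88e-07). HK2, which encodes hexokinase 2, fell by 0.27 on the log2 scale (edgeR adjusted p = 9.75e-06). Of the 11 genes of MondoA and its partners, alpha-arrestins, glucose uptake and the TXNIP ubiquitin ligase, 10 were tested, 6 fell and 1 rose, where 27.0% of all tested genes fell and 27.8% rose, with a median log2 fold change of -0.17.

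The other lists held further genes of the pathway, and their counts stand beside the same background of 54.8% called, 27.8% higher and 27.0% lower. Of 17 reductases and thioredoxin-domain proteins, all tested, 9 fell, 2 rose and 6 were not called (64.7% called), with a median log2 fold change of -0.17. TXNRD1, the cytosolic reductase that recharges TXN, had 146.89, 147.89 and 138.52 FPKM in si-NC and 102.97, 112.79 and 110.23 FPKM in si-STRIP2. The groups did not overlap, and the log2 fold change was -0.41 ± 0.046 (SE, edgeR adjusted p = 1.91e-09). The reductase of the cytosol was lower, while that of mitochondria, TXNRD2, was called higher from a value that is uncertain, as given above. TMX4 fell by 0.48 and TMX1 fell by 0.39 on the log2 scale (edgeR adjusted p = 1.63e-09 and 1.17e-09). Both encode membrane-bound thioredoxin-domain proteins of the endoplasmic reticulum.

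Of 14 genes that handle peroxide and superoxide, 10 were tested, 3 rose, 3 fell and 4 were not called, with a median log2 fold change of 0.061. PRDX6, the peroxiredoxin that uses glutathione in place of thioredoxin, rose from 99.1 ± 5.99 to 138 ± 1.35 FPKM (SD, n = 3; log2 fold change 0.48, edgeR adjusted p = 8.71e-12). SOD1, the cytosolic superoxide dismutase, rose by 0.43 on the log2 scale (edgeR adjusted p = 1.21e-10). SESN2, a stress-induced sestrin, fell from 20.4 ± 0.951 to 14.1 ± 0.352 FPKM (SD, n = 3; log2 fold change -0.53, edgeR adjusted p = 4.75e-11). The other sestrins of the list went both ways. SESN1 rose (log2 fold change 0.62, edgeR adjusted p = 1.04e-08) and SESN3 fell (log2 fold change -0.58, edgeR adjusted p = 2.04e-05).

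Of the 8 glutaredoxins and methionine sulfoxide reductases, all tested, 2 rose, 1 fell and 5 were not called, with a median log2 fold change of -0.015. GLRX3 rose by 0.23 and GLRX2, a mitochondrial glutaredoxin, fell by 0.21 on the log2 scale (edgeR adjusted p = 0.000274 and 0.000446). MSRB1 rose by 0.30 (edgeR adjusted p = 0.0279), a call lost under 5 of 15 alternatives, among them the fits without si-STRIP2 replicate 2 (log2 fold change 0.17, edgeR adjusted p = 0.259) and without si-NC replicate 2 (0.26, edgeR adjusted p = 0.0882).

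Of 5 genes whose proteins thioredoxin reduces or binds, 2 rose, 2 fell and 1 was not called, with a median log2 fold change of 0.094. RRM1, the large subunit of ribonucleotide reductase, rose from 44.03 ± 3.01 to 68.6 ± 2.98 FPKM (SD, n = 3; log2 fold change 0.64, edgeR adjusted p = 5.49e-14). APEX1, a base excision repair endonuclease and redox factor, rose by 0.54 on the log2 scale (edgeR adjusted p = 1.01e-12). RRM2B, a small subunit of the same reductase, fell by 0.31 (edgeR adjusted p = 5.78e-08).

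Of 10 genes of NADPH supply, 8 were tested, 3 rose, 2 fell and 3 were not called, with a median log2 fold change of 0.0090. IDH1, the cytosolic NADP-dependent isocitrate dehydrogenase, fell from 52.7 ± 2.33 to 29.99 ± 0.481 FPKM (SD, n = 3; log2 fold change -0.82, edgeR adjusted p = 1.03e-17). ME1, the cytosolic malic enzyme, fell by 0.45 on the log2 scale (edgeR adjusted p = 2.05e-11), while PGD of the pentose phosphate pathway rose by 0.40 (edgeR adjusted p = 5.27e-10). NNT, the transhydrogenase that supplies NADPH to the mitochondrial matrix, where TXNRD2 uses it, had 0 counts in 5 libraries and 1 count in si-STRIP2 replicate 3. This gene was singled out after its values were seen. A count of 0 allows up to 3 counts, or 0.0115 to 0.0145 FPKM of NNT.

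**Figure D4:**
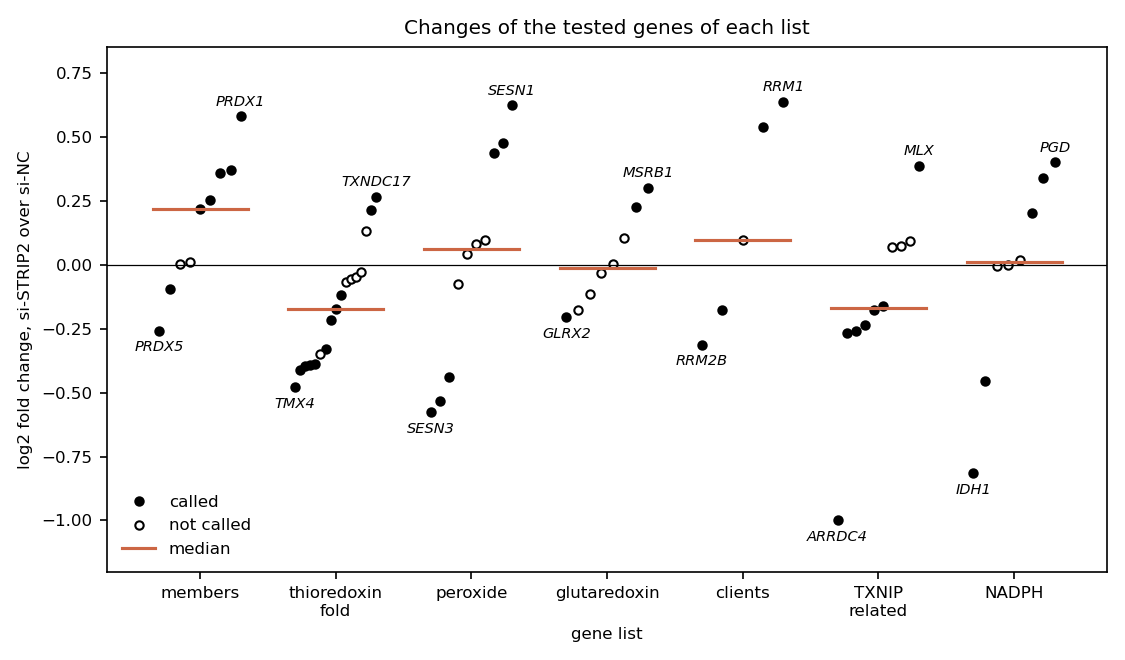
Log2 fold change of si-STRIP2 over si-NC (vertical axis) for the tested members and the tested genes of the 6 lists (horizontal axis), with filled points for called genes, open points for the others and an orange line at the median. The members reach from -0.26 (PRDX5) to 0.58 (PRDX1), and ARRDC4 at -0.998 and IDH1 at -0.82 lie lowest in the lists.

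Other genes lay over some members. The deposited start and end of the members differ from those in GENCODE 29, so shared bases and principal transcripts from GENCODE 29 may differ from the gene models that were counted. HOOK2, on the same strand as PRDX2, held 43.8% as many counts, with 0 shared exonic bases in GENCODE 29. MMACHC, opposite PRDX1, shares 379 exonic bases but held 2.77% as many counts. TXN, TXN2, PRDX3, PRDX4 and PRDX5 had no overlapping gene in the deposited table. Processed copies could also take reads: the table lists 7 pseudogenes of TXN and 4 each of PRDX2 and PRDX3, whose summed counts were 0.115%, 0.113% and 0.0700% of those of TXN, PRDX2 and PRDX3.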

How the data were processed

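RNA-seq counts and FPKM of 6 HCT116 libraries, 3 si-NC and 3 si-STRIP2, were read from 1 table. Per the labels' protocols, oligo(dT) beads selected mRNA from TRIzol extracts, and the library kit was directional. The submitters' processing notes name cutadapt 1.9.1, HISAT2 2.2.1, HTSeq 0.6.1 and GRCh38.p13, and gene coordinates were taken from the table as deposited. The deposited counts are whole numbers per gene with 0 rows that name no gene. The FPKM values the authors deposited equal the count over exonic size and column total, within 0.005.

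The filterByExpr rule with a minimum count of 10 passed 15687 genes, which hold 99.8% of all counts. Library sizes were adjusted by TMM (factors 0.990 to 1.01) and tested with the 2-sided quasi-likelihood F test of edgeR 4.0.16 in R 4.3.3, with group as the only term and Benjamini-Hochberg adjustment over all genes tested. Standard errors are the absolute log2 fold change over the square root of F. The script was tested on simulated data. A check of TXNRD2 against its surroundings is not reported here. Alternatives used other scalings, filters, DESeq2 1.42.0, limma 3.58.1, a replicate block and each library left out. All 10 members are named, with STRIP2 and, for each of the 6 lists, the 3 tested genes of at least 1 FPKM with the smallest adjusted p. The members and lists were chosen with earlier results of these data known. No libraries of a group agreed within sampling noise (chi-square per degree of freedom 2.05 to 15.1).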

Additional observations from a re-analysis of the deposited data

How the results depend on the processing

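The number of members called was 6 or 7 under 15 other settings, PRDX3 being the member lost, so that 1 member was lower in place of 2. It was 2 in the added test against a 1.2-fold change, which called 3723 genes in place of 8599, by construction. The fits that leave out 1 library gave 6 to 7 members. PRDX1 and TXN2 were called under all 16 alternatives, and PRDX2, PRDX5, SOD2 and TXNRD2 under 15, the exception being the 1.2-fold test. TXN was negative with mitochondrial genes left out (-0.00074), with at least 1 FPKM in 3 libraries (-0.0068), and without single libraries, where it ranged from -0.051 to 0.051. PRDX4 was negative with RLE size factors (-0.0050), upper-quartile scaling (-0.00064), mitochondrial genes left out (-0.010), DESeq2 (-0.0071) and at least 1 FPKM (-0.016), and ranged from -0.049 to 0.031 without single libraries. The cause was not tested. The difference of mean total counts, si-STRIP2 minus si-NC, was -910731 and ranged from -1687690 without si-NC replicate 3 to 580433 without si-NC replicate 1. The labels do not say whether the replicate numbers pair the libraries. Deviations of same-numbered libraries correlated at -0.086, -0.013 and -0.072, and those of the other pairs at -0.04 to 0.112. With 3 libraries per group, these values cannot decide whether cultures were paired. With the replicate block, 6 members and 8293 genes were called, and PRDX1 was at 0.58. Counts of 163 to 280 limit the precision of TXNRD2, and TXNIP cannot be compared at this depth.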
